A study of Homo sapiens with 8 samples.

Results

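The genes described here are the G1 cyclins and the kinases they drive: the D cyclins CCND1, CCND2 and CCND3, the E cyclins CCNE1 and CCNE2, the kinases CDK2, CDK4 and CDK6, and the phosphatase CDC25A. They were found by Entrez gene ID, and all 9 of the 9 symbols had an entry among the 27936 genes counted. Expression was counted in 8 RNA-seq libraries, 4 labelled TIP60 knock-out (KO) and 4 labelled control. The cells were HEK293, a permanent cell line that goes back to embryonic kidney. TIP60, the product of the gene KAT5, transfers acetyl groups to lysines of histones and other proteins, as the enzyme of a large chromatin-remodelling complex. Each arm held 2 libraries of sgRNA1 and 2 of sgRNA2, numbers of single guide RNAs that direct a nuclease to its target. The cells of all 8 libraries, the controls included, had received doxycycline at 1 µg/ml over 3 days, which switched on the guides. The genotype label was HEKg1/C9 for every KO library and HEKg1 for every control library, with either guide number, and the labels do not explain its components. Neither the targets of the control guides nor whether the KO cells were a clone or a pool is stated in these labels.

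Progress through the G1 phase is driven by cyclins, unstable regulatory subunits that bind and activate cyclin-dependent kinases (CDKs). D cyclins with CDK4 or CDK6, and later E cyclins with CDK2, phosphorylate the retinoblastoma pocket proteins, which then release E2F transcription factors and permit the genes of S phase to be transcribed. CDC25A removes inhibitory phosphates from CDK2, and CDK inhibitors of the INK4 and CIP/KIP families hold the kinases in check. HEK293 cells carry adenovirus E1A, a viral protein that binds pocket proteins.

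Library totals were 3723992 to 18841774 counts, and the shallowest library was control sgRNA1 replicate 2. KAT5 mRNA, the check of the labels, was at 18.01 to 20.2 CPM in the KO libraries and at 44.5 to 49.0 CPM in the control libraries, so every KO library still held transcripts of the targeted gene. CPM are read counts scaled to a common library size of 1e+06, with TMM factors. Of the HEK293-associated markers, 8 of 9 reached 1 CPM in a library, led by the neurofilament gene NEFM, while the renal factor LHX1 did not. Their sum was 14260 to 15490 CPM in KO and 9335 to 11110 CPM in control libraries, without overlap. Markers of other cells summed to 1.40 to 2.04 CPM in KO and 0.566 to 1.08 CPM in control libraries for leukocytes, 19.0 to 23.8 and 14.7 to 25.1 CPM for fibroblasts, 2.91 to 4.21 and 0 to 0.404 CPM for endothelium, and 1.41 to 2.15 and 0.566 to 0.966 CPM for hepatocytes, with the hepatocyte gene SERPINA1 at 0 in every library. The part of these marker differences in the results below was not tested.

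Transcript levels of the G1 genes differed between KO and control libraries, in both directions. CCND1 and CCND2, the kinases CDK4, CDK6 and CDK2, and CDC25A fell, CCND3 and CCNE2 rose, and CCNE1 did not pass the test. The largest change was the fall of CCND2 to 41.4% of its control level, and the smallest called change was the fall of CDC25A to 86.4%. Of the 9 genes, 2 were called higher and 6 lower at an adjusted p under 0.05 (edgeR quasi-likelihood test, Benjamini-Hochberg over 14455 genes). The background was high: 63% of all tested genes were called in this comparison, 31.8% higher and 31.2% lower, so that 8 calls among 9 genes have to be read against it, and 38.4 to 45.3% were called lower among genes as abundant as the 6 that fell. The median log2 fold change of the 9 genes was -0.36, beside 0.0068 over all tested genes. In 8 of the 9 genes the 4 KO and the 4 control libraries did not overlap in CPM, 2 of them higher and 6 lower in KO. The same held for 52.9% of all tested genes, 27.3% higher and 25.6% lower. All 9 genes passed the filter on low counts, with 52 to 3337 counts per gene and library.

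**Figure D1:**
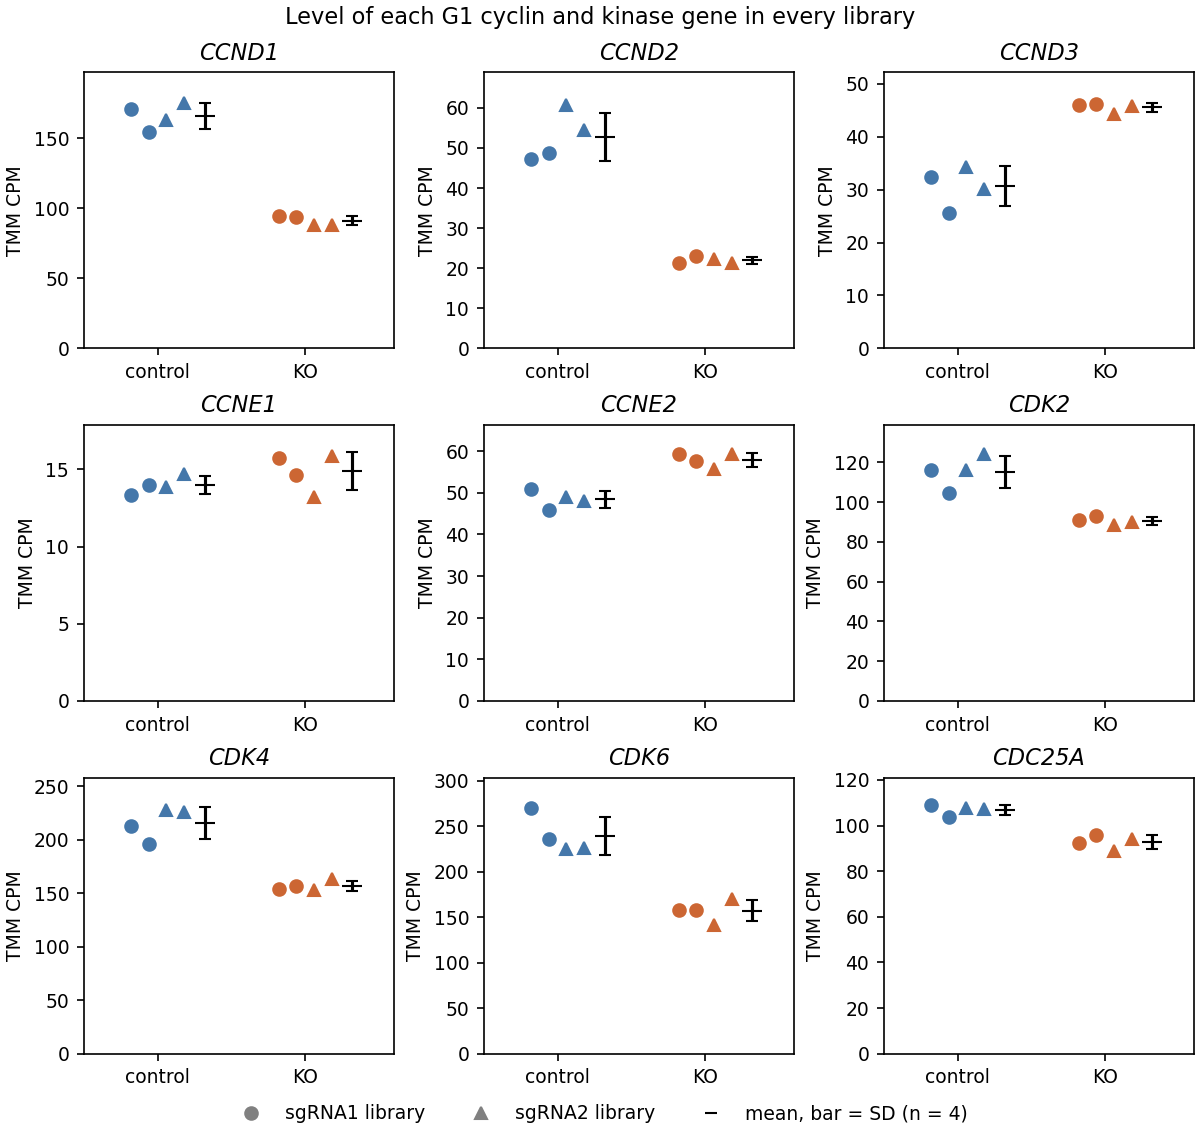
TMM-scaled CPM (vertical axes, each from 0) of the 9 genes in each of the 8 libraries, with circles for sgRNA1, triangles for sgRNA2, and the mean and SD of each arm (n = 4) beside the points. The arms do not overlap for any gene except CCNE1, whose KO libraries span the control range.

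D cyclins are the regulatory subunits that growth signals induce. CCND1 (gene ID 595, chromosome 11, 69641156 to 69654474, GRCh38.p14, plus strand), the most studied of the D cyclins and a common oncogene, had 94.2 and 94.0 CPM in the KO sgRNA1 libraries and 88.0 and 88.3 in the KO sgRNA2 libraries. Its control values were 170.9 and 154.6 CPM with sgRNA1 and 162.8 and 174.7 with sgRNA2. Every KO library lay far below every control library. The log2 fold change was -0.87 ± 0.047 (SE, adjusted p = 3.13e-12 by edgeR), and 2.14% of all tested genes had a lower log2 fold change than CCND1. LTO1 lies on the other strand over 10.3% of the exonic bases of CCND1. It was not called (0.070 ± 0.073, adjusted p = 0.417 by edgeR), and whether its reads contributed to the CCND1 counts was not tested.

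CCND2 (gene ID 894, chromosome 12, 4273762 to 4305353, plus strand) encodes the D cyclin linked to growth of haematopoietic and neural precursor cells. Its CPM were 21.3 and 23.1 in KO sgRNA1 and 22.4 and 21.2 in KO sgRNA2 libraries. In the controls they were 47.3 and 48.8 with sgRNA1 and 60.7 and 54.4 with sgRNA2. The KO libraries sat close together, while the sgRNA2 controls were both higher than the sgRNA1 controls. The log2 fold change was -1.27 ± 0.069 (adjusted p = 2.97e-12 by edgeR), and 0.332% of tested genes had a lower log2 fold change. GENCODE v29 places AC008012.1 on the same strand over 13.8% of the exonic bases of CCND2, so some reads may have been shared with it.

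CCND3 (gene ID 896, chromosome 6, 41934933 to 42050035, minus strand), the D cyclin best known in lymphocytes and muscle, moved the other way. It had 45.9 and 46.2 CPM in KO sgRNA1 and 44.3 and 45.8 in KO sgRNA2 libraries, against 32.5 and 25.6 in control sgRNA1 and 34.3 and 30.1 in control sgRNA2 libraries. Every KO library was higher than every control library, and the lowest value was that of the shallowest library. This was a log2 fold change of 0.53 ± 0.065 (adjusted p = 5.15e-07 by edgeR), and 16.8% of tested genes had a higher log2 fold change.

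The mixture of D cyclin transcripts therefore differed between the arms. Per kilobase of the deposited gene length, the D cyclins summed to 37.8 ± 0.998 CPM per kb (SD, n = 4) in KO and 54.2 ± 3.13 in control libraries, a ratio of 0.698. CCND3 made up 37.7%, 37.6%, 38.1% and 39.0% of that sum in the KO libraries and 18.7%, 16.4%, 19.4% and 17.0% in the control libraries, sgRNA1 before sgRNA2. CCND1 remained the most abundant D cyclin in every library, with a share of 52.5 to 54.1% in KO and 64.4 to 69.0% in control libraries. CCND2 fell from 12.8 to 16.2% in control to 8.21 to 9.04% in KO libraries. The length used matters most for CCND3, which has 3161 bases in the deposited tables and 5802 exonic bases in GENCODE v29. With GENCODE lengths, an alternative chosen after seeing the data, CCND3 made up 26.0 to 27.1% in KO and 10.2 to 12.3% in control libraries. None of the 3 shares overlapped between the arms with either length, and no test was made of the shares or of the summed levels, which combine several of the genes. Since counts are relative, a level is a share of the RNA of a library, and in these bulk samples fewer expressing cells and less RNA per cell cannot be told apart.

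**Figure D2:**
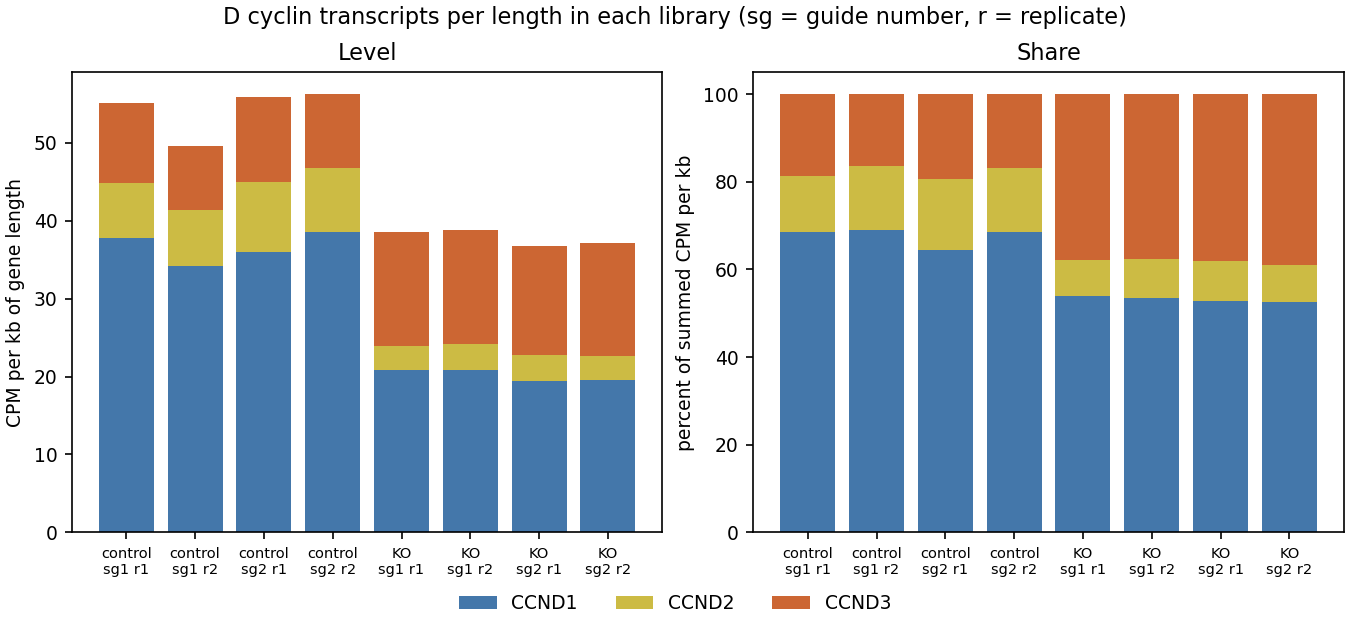
D cyclin transcripts in each library, as TMM CPM per kb of the deposited gene length (left) and as percent of their sum (right), for CCND1, CCND2 and CCND3 stacked. The summed level is 36.8 to 38.8 in KO and 49.5 to 56.2 in control libraries, and the CCND3 share is higher in every KO library.

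CDK4 and CDK6 are the catalytic partners of the D cyclins, and both fell. CDK4 (gene ID 1019, chromosome 12, 57747727 to 57752310, minus strand) had 154.3 and 157.1 CPM in KO sgRNA1 and 153.2 and 163.1 in KO sgRNA2 libraries, against 212.8 and 195.6 in control sgRNA1 and 228.2 and 226.1 in control sgRNA2 libraries. No KO library reached the lowest control. CDK4 had a log2 fold change of -0.47 ± 0.044 (adjusted p = 1.49e-08 by edgeR), a level of 72.4% of control. TSPAN31, which lies on the other strand over 43.2% of the exonic bases of CDK4, rose by 0.26 ± 0.081 (adjusted p = 0.00749), the direction opposite to that of CDK4. Whether the counting used the strand is not given in the labels.

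CDK6 (gene ID 1021, chromosome 7, 92604921 to 92836573, minus strand), which has a long 3′ untranslated region, had 158.1 and 158.5 CPM in KO sgRNA1 and 141.8 and 170.1 in KO sgRNA2 libraries. Its control values were 269.6 and 235.7 CPM with sgRNA1 and 225.2 and 225.7 with sgRNA2. The highest KO library, of sgRNA2, was below the lowest control. In CPM the control sgRNA1 pair lay furthest apart, and relative to its level the KO sgRNA2 pair did. CDK6 had a log2 fold change of -0.61 ± 0.056 (adjusted p = 7.91e-09 by edgeR), a level of 65.6% of control. Per kilobase of gene length, CDK4 was 78.4 ± 2.22 and CDK6 11.1 ± 0.824 CPM per kb in KO libraries (SD, n = 4), and 107.7 ± 7.51 and 16.9 ± 1.48 in control libraries. CDK4 held 87.1 to 88.4% of the sum of both in KO and 84.8 to 87.7% in control libraries, ranges that overlap. With sgRNA1 its shares were 87.3 and 87.5% in KO and 84.8 and 85.4% in control libraries, without overlap. With sgRNA2 they were 88.4 and 87.1% in KO and 87.7 and 87.6% in control libraries. Whether the balance of the kinases differed between the arms was not tested. With deposited lengths, the sum of the kinases was 0.718 of control, beside 0.698 for the D cyclin sum. With GENCODE exonic lengths, chosen after seeing the data, these ratios were 0.712 and 0.634, so their nearness depends on the length used.

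CDK2, the partner of the E cyclins, fell as well. CDK2 (gene ID 1017, chromosome 12, 55966830 to 55972789, plus strand) had 90.9 and 93.2 CPM in KO sgRNA1 and 88.3 and 89.8 in KO sgRNA2 libraries, against 116.3 and 104.8 in control sgRNA1 and 116.0 and 124.4 in control sgRNA2 libraries. Every KO library was below the lowest control, which was the shallowest library. For CDK2 the log2 fold change was -0.36 ± 0.049 (adjusted p = 1.86e-06 by edgeR), and 17.5% of tested genes had a lower log2 fold change. On the other strand, exons of AC025162.1 and of the pigment gene PMEL overlap 16.8% of its exonic bases together.

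CDC25A, the phosphatase that activates CDK2, showed the smallest called change. CDC25A (gene ID 993, chromosome 3, 48157146 to 48188417, minus strand) had 92.3 and 96.0 CPM in KO sgRNA1 and 88.9 and 93.9 in KO sgRNA2 libraries, against 108.8, 103.7, 107.5 and 107.3 in the control libraries, sgRNA1 before sgRNA2. The arms were apart although the step between them was small. On the log2 scale the change was -0.21 ± 0.044 (adjusted p = 0.000324 by edgeR), and 39.0% of tested genes changed by less in either direction.

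Neither E cyclin was called lower. CCNE2 (gene ID 9134, chromosome 8, 94880224 to 94896693, minus strand) had 59.2 and 57.6 CPM in KO sgRNA1 and 55.7 and 59.2 in KO sgRNA2 libraries, against 50.8, 45.8, 48.9 and 48.1 in the control libraries. Every KO library was above every control. For CCNE2 the log2 fold change was 0.24 ± 0.051 (adjusted p = 0.000293 by edgeR), a level of 118.5% of control. INTS8, a subunit of the Integrator complex, lies on the other strand over 37.0% of the exonic bases of CCNE2 and rose by 0.27 ± 0.043 (adjusted p = 1.26e-05). Whether reads of INTS8 contributed to the CCNE2 counts was not tested.

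CCNE1 (gene ID 898, chromosome 19, 29811991 to 29824312, plus strand) had 15.8 and 14.6 CPM in KO sgRNA1 and 13.2 and 15.9 in KO sgRNA2 libraries, against 13.3, 14.01, 13.9 and 14.7 in the control libraries. The KO libraries lay on both sides of the controls. The log2 fold change was 0.086 ± 0.090 (adjusted p = 0.421 by edgeR), with a 95% interval of -0.10 to 0.27 that leaves room for a rise as large as that of CCNE2. It ran from 0.036 without KO sgRNA2 replicate 2 to 0.16 without KO sgRNA2 replicate 1, and was called in none of the alternatives. Per kilobase, CCNE2 was the more abundant E cyclin, with 70.7 to 73.2% of the sum of both in KO and 67.9 to 71.2% in control libraries. The summed E cyclin level was 25.6 ± 1.13 CPM per kb (SD, n = 4) in KO and 22.2 ± 0.561 in control libraries, a ratio of 1.16, against 0.698 for the D cyclins.

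The order of the levels per kilobase of deposited length also differed between the arms. In control libraries it ran from CDK4 (107.7 CPM per kb) through CDK2 (47.2), CCND1 (36.6), CDC25A (26.4), CDK6 (16.9), CCNE2 (15.4), CCND3 (9.69) and CCND2 (7.85) to CCNE1 (6.83). The ranges of CDK6 and CCNE2, of CCND3 and CCND2, and of CCND2 and CCNE1 overlapped across the control libraries. Within each control library, CDK6 was above CCNE2, CCND3 above CCND2 and CCND2 above CCNE1. Whether these neighbours differed was not tested. In KO libraries CDC25A (22.9) stood above CCND1 (20.1), followed by CCNE2 (18.4), CCND3 (14.4), CDK6 (11.1), CCNE1 (7.27) and CCND2 (3.27), below CDK4 (78.4) and CDK2 (37.0). No neighbouring ranges overlapped in the KO libraries. This order depends on the length used. With GENCODE exonic lengths, CCND2 was again the lowest of the 9 genes in KO (3.07 CPM per kb), and CDC25A stood below CCND1 in control and above it in KO. With those lengths KO CDK6 (12.8) was above CCND3 (7.85), its range overlapped that of CCNE2 (13.2), and CCND3 (5.28) was the lowest gene in control, with a range that overlapped that of CCNE1 (5.48).

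The changes had the same direction with either guide number, where KO and control libraries were matched by number alone. The labels do not say whether a number stands for the same guide in both arms. Within sgRNA1, 2 of the 9 genes were called higher and 6 lower, where 47.6% of all tested genes were called, 24.3% higher and 23.3% lower. Within sgRNA2 the members' counts were again 2 and 6, where 51.2% of all tested genes were called, 25.7% higher and 25.4% lower. The log2 fold change of CCND2 was -1.11 ± 0.094 with sgRNA1 and -1.40 ± 0.084 with sgRNA2. CCND1 had -0.80 ± 0.067 and -0.94 ± 0.064, CDK6 -0.69 ± 0.079 and -0.53 ± 0.077, and CCND3 0.60 ± 0.10 and 0.48 ± 0.088. CDK4 changed by -0.40 ± 0.063 and -0.52 ± 0.060, and CDK2 by -0.28 ± 0.070 and -0.43 ± 0.065. The smaller changes were CDC25A, with -0.18 ± 0.066 (adjusted p = 0.0284) and -0.23 ± 0.062 (adjusted p = 0.00401), and CCNE2, with 0.25 ± 0.078 (adjusted p = 0.0146) and 0.24 ± 0.071 (adjusted p = 0.00812). CCNE1 had 0.17 ± 0.14 (adjusted p = 0.318) and 0.019 ± 0.12 (adjusted p = 0.907).

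Within a guide, the calls of the small changes were lost in some alternatives, while their direction stayed. CDC25A with sgRNA1 lost its call without KO sgRNA1 replicate 1 (adjusted p = 0.181), KO sgRNA1 replicate 2 (0.0596), control sgRNA1 replicate 1 (0.236) or control sgRNA2 replicate 1 (0.0532), with DESeq2 (0.0847) and with library totals in place of TMM (0.0608), at log2 fold changes of -0.14 to -0.22. CCNE2 with sgRNA1 lost it without KO sgRNA1 replicate 1 (0.104), KO sgRNA1 replicate 2 (0.0534) or control sgRNA1 replicate 2 (0.0549) and with DESeq2 (0.0582), and with sgRNA2 without KO sgRNA2 replicate 2 (0.0667), control sgRNA2 replicate 1 (0.0533) or control sgRNA2 replicate 2 (0.0756), at log2 fold changes of 0.19 to 0.26. CDK2 with sgRNA1 changed by -0.18 (adjusted p = 0.114) without control sgRNA1 replicate 1. Over all 8 libraries, the 8 calls held under each of the 16 alternatives.

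The difference of the changes between the guides, tested directly as an interaction, was called for 0 of the 9 genes and for 0% of all tested genes by edgeR, and for 0 genes by DESeq2 and limma-voom. At an unadjusted p under 0.05 it was 638 of 14455 genes by edgeR, 192 by DESeq2 and 663 by limma-voom, and among the 9 genes it was 1 by edgeR, CCND2. Its change with sgRNA2 was lower by -0.29 ± 0.13 (95% interval -0.56 to -0.024, unadjusted p = 0.0342, adjusted p = 1.00). The intervals of the other 8 genes included 0, and the widest, that of CCNE1, ran from -0.54 to 0.23. Differences between guides within those intervals were not detectable with these libraries. As the arms were matched by guide number alone, any difference between control sgRNA1 and control sgRNA2 libraries enters this contrast too. For CCND2 the KO libraries held 21.2 to 23.1 CPM. Its controls held 47.3 and 48.8 CPM with sgRNA1 and 60.7 and 54.4 CPM with sgRNA2.

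**Figure D3:**
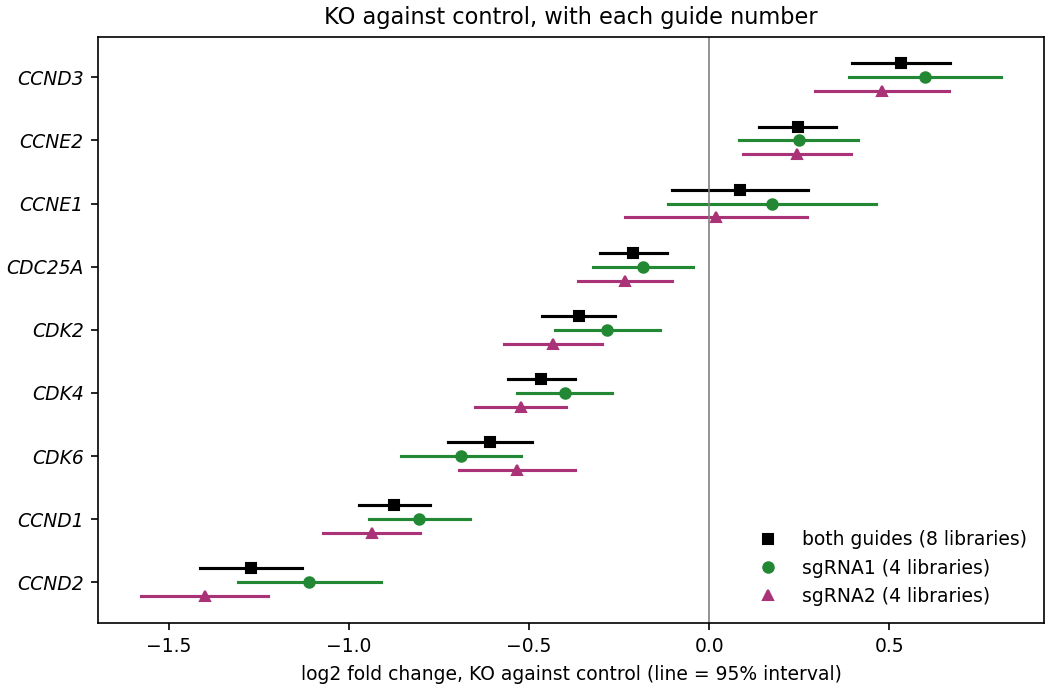
Log2 fold change of KO against control (horizontal axis) for each gene, over all 8 libraries (squares) and within sgRNA1 (circles) and sgRNA2 (triangles), with 95% intervals as lines. CCND2 is lowest at -1.27 and CCND3 highest at 0.53, and both guide numbers lie on the same side of 0 for every gene.

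Promoter sequences are shown for 3 of the genes that differ in their response, CDK4 and CDC25A, which fell, and CCNE1, which did not pass the test. They are the 250 bases before the annotated start, from RefSeq on GRCh38.p14, written 5′ to 3′ on the strand of the gene. Of the 9 genes, 5 matched the promoter table, and these 3 have a single start in it. CCND3 has 3 starts and CDK6 has 2. CCND1, CCND2, CCNE2 and CDK2 are the other genes. Capitals mark an E-box (CACGTG, the site bound by MYC and related factors) or an E2F site (TTTCCCGC, TTTCGCGC, TTTGCCGC or TTTGGCGC), searched on both strands.
CDK4, chr12:57752311-57752560, minus strand: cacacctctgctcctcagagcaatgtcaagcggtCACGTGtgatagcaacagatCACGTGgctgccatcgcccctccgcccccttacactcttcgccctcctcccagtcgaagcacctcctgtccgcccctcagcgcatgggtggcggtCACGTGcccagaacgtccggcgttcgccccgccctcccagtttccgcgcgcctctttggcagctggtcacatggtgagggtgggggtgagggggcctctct
CDC25A, chr3:48188418-48188667, minus strand: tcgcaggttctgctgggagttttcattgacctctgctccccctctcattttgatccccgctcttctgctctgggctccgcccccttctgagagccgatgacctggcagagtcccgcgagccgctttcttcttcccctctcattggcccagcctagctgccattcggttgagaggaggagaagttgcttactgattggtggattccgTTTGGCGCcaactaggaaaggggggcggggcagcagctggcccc
CCNE1, chr19:29811741-29811990, plus strand: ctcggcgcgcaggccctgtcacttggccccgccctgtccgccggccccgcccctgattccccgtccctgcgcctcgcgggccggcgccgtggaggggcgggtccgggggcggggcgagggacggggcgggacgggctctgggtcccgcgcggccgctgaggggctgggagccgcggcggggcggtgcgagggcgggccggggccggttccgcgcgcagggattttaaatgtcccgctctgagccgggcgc

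The windows differed in the motifs they held. That of CDK4 held 3 E-boxes, beginning 216, 196 and 101 bases before the start, where 6.34% of the 35116 windows in the table held an E-box and 0.0797% held 3 or more. That of CDC25A held 1 E2F site, 44 bases before the start, found in 2.79% of windows, and 2 CCAAT boxes (bound by NF-Y), 110 and 58 bases before the start, where 9.53% of windows held 2 or more. That of CCNE1 held neither an E-box nor one of the E2F sequences as spelled. GC boxes (GGGCGG) were in all 3 windows, 7 in CCNE1, 3 in CDK4 and 2 in CDC25A, where 42.6% of windows held at least 1 and 4.15% held 5 or more. A match describes the letters in the window and shows no binding.

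The genes around the G1 kinases in the same pathway were counted list by list. CDK inhibitors and pocket proteins were called higher in 6 and lower in 3 of 10 cases, with a median log2 fold change of 0.21. CDKN2B (p15), an INK4 inhibitor that binds CDK4 and CDK6, rose from 31.8 ± 2.03 to 89.8 ± 2.41 CPM (SD, n = 4), a log2 fold change of 1.48 ± 0.053. CDKN2D (p19), of the same family, rose by 1.42 ± 0.10, and the CIP/KIP inhibitors CDKN1A (p21) and CDKN1C (p57) rose by 1.26 ± 0.073 and 3.55 ± 0.40, the latter from 6 control counts in all. The 3 lower genes were CDKN1B, CDKN2A and RBL1, and RBL2 was not called.

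E2F and DP transcription factors, some of which the pocket proteins restrain, were called higher in 1 and lower in 6 of 10 cases, with a median of -0.19. TFDP1, a partner with which many E2F proteins bind DNA, fell from 510.6 ± 15.1 to 354.0 ± 4.04 CPM (-0.53 ± 0.042). The repressor E2F8 fell by -0.66 ± 0.065 and E2F5 by -0.35 ± 0.058. E2F3, an activator, was the 1 that rose (0.19 ± 0.046). S-phase genes under E2F control were called higher in 3 and lower in 24 of 32 cases, with a median of -0.21. UHRF1 (-0.62 ± 0.045), the helicase subunit MCM2 (-0.49 ± 0.040) and the S-phase cyclin CCNA2 (-0.52 ± 0.043) fell. The ribonucleotide reductase subunit RRM2 rose (0.42 ± 0.044), as did CDC6 and GINS4, which were singled out after their values were seen.

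Of the CDK activators and inhibitory kinases, 1 was called higher and 5 lower of 9 tested, with a median of -0.095, and CDK7 was not tested. The kinase PKMYT1, which inhibits CDK1, fell by -0.55 ± 0.073, the phosphatase CDC25B fell by -0.31 ± 0.047 and WEE1 by -0.12 ± 0.046, while MNAT1, a subunit of the CDK-activating kinase, rose by 0.29 ± 0.070. The WEE1 call was lost without KO sgRNA2 replicate 2 (adjusted p = 0.135), control sgRNA2 replicate 1 (0.121) or control sgRNA2 replicate 2 (0.087), with DESeq2 (0.0602) and with library totals (0.116). The called members of that list numbered 3 in place of 6 with library totals, without control sgRNA2 replicate 1 and without control sgRNA2 replicate 2. Genes for the turnover of G1 cyclins and CDC25A were called higher in 7 and lower in 6 of 16 cases, with a median of 0.058. SKP2, which targets CDKN1B for degradation, fell by -0.53 ± 0.050 and CUL4A by -0.60 ± 0.044, while SKP1, a core subunit of SCF ubiquitin ligases, rose by 0.63 ± 0.047. GSK3B, a kinase that marks D cyclins for export and degradation, rose by 0.47 ± 0.046.

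Other cyclins and CDKs were called higher in 8 and lower in 11 of 29 tested, with a median of 0.027. The mitotic cyclins CCNB1 and CCNB2 fell by -0.49 ± 0.046 and -0.41 ± 0.051. CDK19, a kinase of the Mediator complex, rose by 0.87 ± 0.059, and the germline A cyclin CCNA1 rose by 3.32 ± 0.33. The mean of CCNA1 was 0.334 CPM in control and 3.59 CPM in KO libraries. These rest on 15 raw counts in all control libraries and 231 in the more deeply sequenced KO arm. All of these counts stand against the 31.8% of all tested genes that were called higher and the 31.2% called lower. Lower calls were more frequent among abundant genes. With a mean log2 CPM from 5 to below 6, where CCND2, CCND3 and CCNE2 lie, 30.5% were called higher and 38.4% lower. From 6 to below 7, where CCND1, CDK2 and CDC25A lie, 29.5% were called higher and 41.1% lower, and from 7 to below 8, where CDK4 and CDK6 lie, 26.2% and 45.3%.

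**Figure D4:**
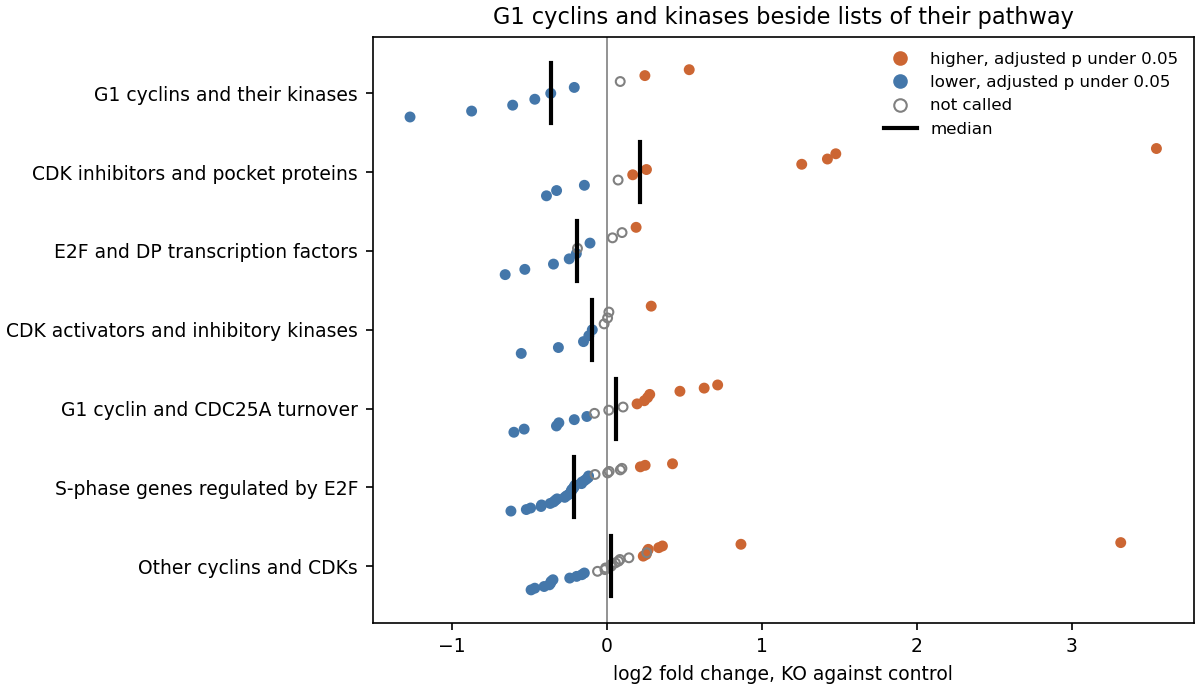
Log2 fold change of KO against control (horizontal axis) for each tested gene of the 9 G1 genes and of 6 pathway lists, coloured by the call (adjusted p under 0.05), with the median of each list as a vertical line. The medians run from -0.36 for the G1 cyclins and their kinases to 0.21 for the CDK inhibitors and pocket proteins.

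Genes that followed the 3 most changed members across the 8 libraries were listed by Pearson's r of log2 CPM, as a description. The closest to CCND2 were SREBF1, a regulator of lipid synthesis (r = 0.9985), and the receptor EPHB4 (r = 0.998). The closest to CCND1 were the glutamate transporter gene SLC1A3 (r = 0.9994) and GNPDA1 (r = 0.9977), and the closest to CDK6 were the circadian regulator CLOCK (r = 0.9957) and SEPTIN11 (r = 0.9955). All of these points share the 2 arms, and 1077 genes had an r above 0.95 with CCND2, 1234 with CCND1 and 594 with CDK6.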

How the data were processed

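RNA of 8 HEK293 samples had been made into stranded poly(A) libraries and sequenced as 80 bp paired reads. The values used were raw counts per gene, deposited by the authors in 1 table per library with the gene length in bases, which the authors' tables give as another column. The submitters' processing notes name featureCounts and hg38. Aligner, annotation release and strand setting were not stated in any source at hand. Of 28395 entries, 459 without a gene ID (0.0284 to 0.0425% of counts) were left out. Symbols came from RefSeq (GRCh38.p14), which named 27744 of 27936 genes, and exon overlaps from GENCODE v29.

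Low genes were removed with filterByExpr (4 groups of arm and guide number, minimum count 10, minimum total 15). KO and control were compared with edgeR 4.0.16 (TMM, quasi-likelihood F test) with guide number as a covariate (residual df 5). Contrasts within and between guides came from a fit of 4 group means (residual df 4), in which a group of 2 libraries shares the dispersion of all 8. Standard errors were derived from the F statistic. Adjusted p-values are Benjamini-Hochberg over all tested genes. Whether replicates came from separate cultures is not in the labels, so p-values measure only the spread between these libraries. The script was tested on simulated counts in which few genes changed. That test does not cover data in which most genes change. Alternatives were DESeq2 1.42.0, limma-voom (limma 3.58.1), other scalings and filters, a replicate block, no guide term, leaving out each library and, added after seeing the data, GENCODE exonic lengths. DESeq2 and edgeR both used the deposited counts.

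Members and lists were chosen with earlier results of these data known. The genes named are the 9 members, KAT5, up to 4 genes per pathway list with the smallest p, and the 2 genes closest in r to each of the 3 most changed members. Overlapping neighbours, and list genes singled out because a count was small, were named after their values were seen.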

Additional observations from a re-analysis of the deposited data

Results flagged for a closer look

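The share of CCND1 in the D cyclin sum per kilobase had a low value in 1 control library. It was 64.4% in control sgRNA2 replicate 1 and 68.6, 69.0 and 68.7% in the other control libraries, so that the gap to the nearest library was 0.906 of the whole range, above Dixon's 95% critical value for 4 samples. The same library had the highest control shares of CCND2 (16.2%) and CCND3 (19.4%). It still lay above the highest KO library (54.1%). Chance flags about 1 in 20 groups, and 34 groups of 4 libraries were examined.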

How the results depend on the processing

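Over all 8 libraries, 8 of the 9 genes were called under each of the 16 alternatives. Within a guide number the called genes numbered 6 to 8 (sgRNA1) and 7 to 8 (sgRNA2). The difference between guides was called for 11 genes in place of 0 without a filter, for 1 with a replicate block, and for 0 to 25 when a library was left out (25 without control sgRNA1 replicate 1, 23 without control sgRNA1 replicate 2, 3 without KO sgRNA2 replicate 1), and for none of the 9 genes in any of these. The cause was not tested. Replicate numbers did not pair the samples (r of deviations -0.053 to 0.028), and with the replicate block 8 of the 9 genes and 8980 genes in all were called. The change of CCNE1 with sgRNA2, 0.019, turned to -0.0011 without a filter and ran from -0.11 to 0.15 with a library left out. The guide difference of CCNE2, -0.0046, turned to 0.0016 with DESeq2 size factors, 0.00066 with limma-voom and 0.00065 without a filter, and ran from -0.12 to 0.042 with a library left out. All of these were uncalled. Without division by length, the sums in KO and control libraries were 158.7 and 249.1 CPM for the D cyclins, 72.8 and 62.4 CPM for the E cyclins and 314.0 and 454.8 CPM for CDK4 with CDK6. The share of CCND1 was then 57.4% in KO, that of CCND2 13.9 and 21.2%, of CCND3 28.7 and 12.3%, of CCNE2 79.6 and 77.6% and of CDK4 50.01 and 47.5%, since long transcripts weigh more. With GENCODE exonic lengths, chosen after seeing the data, the sums in KO and control libraries were 29.79 and 46.97 CPM per kb for the D cyclins, 19.01 and 16.49 for the E cyclins and 62.34 and 87.58 for CDK4 with CDK6, and the shares were 63.31 and 73.09% for CCND1, 10.31% in KO for CCND2, 26.38 and 11.22% for CCND3, 69.34 and 66.73% for CCNE2 and 79.46 and 77.69% for CDK4. Depth limits CCNE1 most, with 52 counts in the shallowest library.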
